A study of Mus musculus with 20 samples.

Results

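The genes described here encode antioxidant enzymes of the mouse heart ventricle: the glutathione peroxidases Gpx1, Gpx3 and Gpx4, the methionine sulfoxide reductase Msrb1, catalase (Cat), the superoxide dismutases Sod1, Sod2 and Sod3, and the peroxiredoxins Prdx1 and Prdx3. They were chosen by name, and every probe set that the platform annotation links to 1 of these 10 genes was taken, 12 of the 12422 probe sets on the Affymetrix array once its control probe sets were left out. Gpx1, Gpx3, Gpx4 and Msrb1 are selenoprotein genes and were set against the other 6. Cat had 2 probe sets and each of the 3 Sod genes, Prdx3 and the selenoprotein genes had 1. Both probe sets of Prdx1 are also linked to Gm21399, annotated as a pseudogene, so their values cannot be given to Prdx1 alone and are named here as Prdx1/Gm21399. All 12 probe sets were among the brightest 60% by their mean over 19 arrays and were tested.

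The study set FVBN mice with a tTA transgene against wild-type FVBN mice, with and without doxycycline (Doxy), on total RNA from cardiac ventricle. The labels name the alpha MHC promoter, which is active in cardiomyocytes, and tTA is a tetracycline-controlled transcriptional activator whose binding to DNA is blocked by Doxy. The groups were tTA + Doxy (5 arrays), tTA (8), FVBN + Doxy (4) and FVBN control (2). A further array, titled only "Cardiac tTA expression", without a number or a treatment, was put in no group. The labels give no age, sex, dose or founder line, and do not say that arrays are separate animals, so each p-value reflects array-to-array spread alone, and that spread may be technical. The transgene itself was not measured here. Array numbers, used below as names, form runs that each hold 1 group: 7288 to 7311 and 9310 to 9322 for tTA, 7399 to 7488 for tTA + Doxy, 8337 to 8341 for FVBN + Doxy, and 8177 and 8182 for FVBN control. The labels do not say what the numbers mark, and anything that differs between the runs cannot be told apart from genotype or Doxy. Of the 10 cardiomyocyte markers 9 were measured, and their summed intensity ran from 29543 to 34303 on the 13 tTA arrays and from 32124 to 34450 on the 6 FVBN arrays. Of these markers Ryr2, the calcium release channel, was the 1 that was lower in both genotype comparisons. Its log2 difference was -0.82 ± 0.10 (SE) without Doxy and -0.58 ± 0.09 with it. Ckm was lower in the mean of both genotype differences (-0.20 ± 0.05, limma, adjusted p = 0.026). Among all tested probe sets 1.82% were called lower without Doxy, 1.6% under Doxy and 4.31% for the mean. In whole tissue, fewer cells of a type and less RNA per cell cannot be told apart.

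Superoxide formed by the respiratory chain and by oxidases is turned into hydrogen peroxide by the dismutases, and peroxide is then removed by catalase, glutathione peroxidases and peroxiredoxins. Selenoproteins carry selenocysteine, which is read from a UGA codon with the help of a hairpin in the mRNA. In many of them, the glutathione peroxidases and Msrb1 included, this residue does the chemistry of the active site. The heart is rich in mitochondria, and Sod2 and Prdx3 act inside them.

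The stretch upstream of the start is shown for Msrb1, Gpx3 and Sod2. The difference between genotypes of these 3 genes passed the test in at least 1 comparison. Prdx1 is shown as an example with a match to the antioxidant response element, which Sod1, not shown, also holds. In GRCm38.p6 Msrb1 lies on chromosome 17 from 24736593 to 24742778, Gpx3 on chromosome 11 from 54902854 to 54910387, Sod2 on chromosome 17 from 13007839 to 13018119, and Prdx1 on chromosome 4 from 116685599 to 116700000. Each stretch is the 250 bases before the annotated start, 5′ to 3′ on the gene's strand, from RefSeq, build GRCm38.p6. Capitals mark matches on either strand to the GC box GGGCGG and to the antioxidant response element core TGACNNNGC, the sequence bound by the transcription factor Nrf2.
Msrb1 (chr17:24736343-24736592, plus strand): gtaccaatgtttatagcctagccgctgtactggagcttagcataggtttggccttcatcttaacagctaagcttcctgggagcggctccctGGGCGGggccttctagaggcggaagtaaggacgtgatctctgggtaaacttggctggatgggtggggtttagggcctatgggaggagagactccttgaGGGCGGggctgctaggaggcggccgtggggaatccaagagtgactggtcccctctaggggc
Gpx3 (chr11:54902604-54902853, plus strand): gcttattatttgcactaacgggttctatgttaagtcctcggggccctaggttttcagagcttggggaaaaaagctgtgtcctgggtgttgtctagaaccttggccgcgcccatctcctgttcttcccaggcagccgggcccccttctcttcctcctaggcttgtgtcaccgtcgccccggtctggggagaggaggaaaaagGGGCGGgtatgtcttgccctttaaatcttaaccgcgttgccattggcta
Sod2 (chr17:13007589-13007838, plus strand): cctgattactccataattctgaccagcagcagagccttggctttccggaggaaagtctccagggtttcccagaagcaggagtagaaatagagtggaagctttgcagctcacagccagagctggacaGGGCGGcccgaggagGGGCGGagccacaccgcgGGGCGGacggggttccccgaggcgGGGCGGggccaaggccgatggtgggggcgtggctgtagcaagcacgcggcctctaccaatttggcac
Prdx1 (chr4:116685349-116685598, plus strand): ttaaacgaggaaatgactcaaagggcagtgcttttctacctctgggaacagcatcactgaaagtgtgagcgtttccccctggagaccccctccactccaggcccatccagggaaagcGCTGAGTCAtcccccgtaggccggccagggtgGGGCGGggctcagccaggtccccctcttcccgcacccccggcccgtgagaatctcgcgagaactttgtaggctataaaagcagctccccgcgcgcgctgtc

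The Msrb1 window held 2 GC boxes, the Gpx3 window 1 and the Sod2 window 4, while none of the 3 held the response element core. The Prdx1 window held 1 core match, 133 to 125 bases before the start on the opposite strand, and 1 GC box. Of 32851 windows of this length in the reference table, 32.7% held a GC box and 10.2% a core match. Among the members, 9 of 10 had an entry in the table, Sod3 being without one. Besides Prdx1, Sod1 held a core match, 56 to 48 bases before its start. Gpx1 held neither motif. The printed matches do not overlap each other. A match describes the letters and is no evidence of binding.

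**Figure D1:**
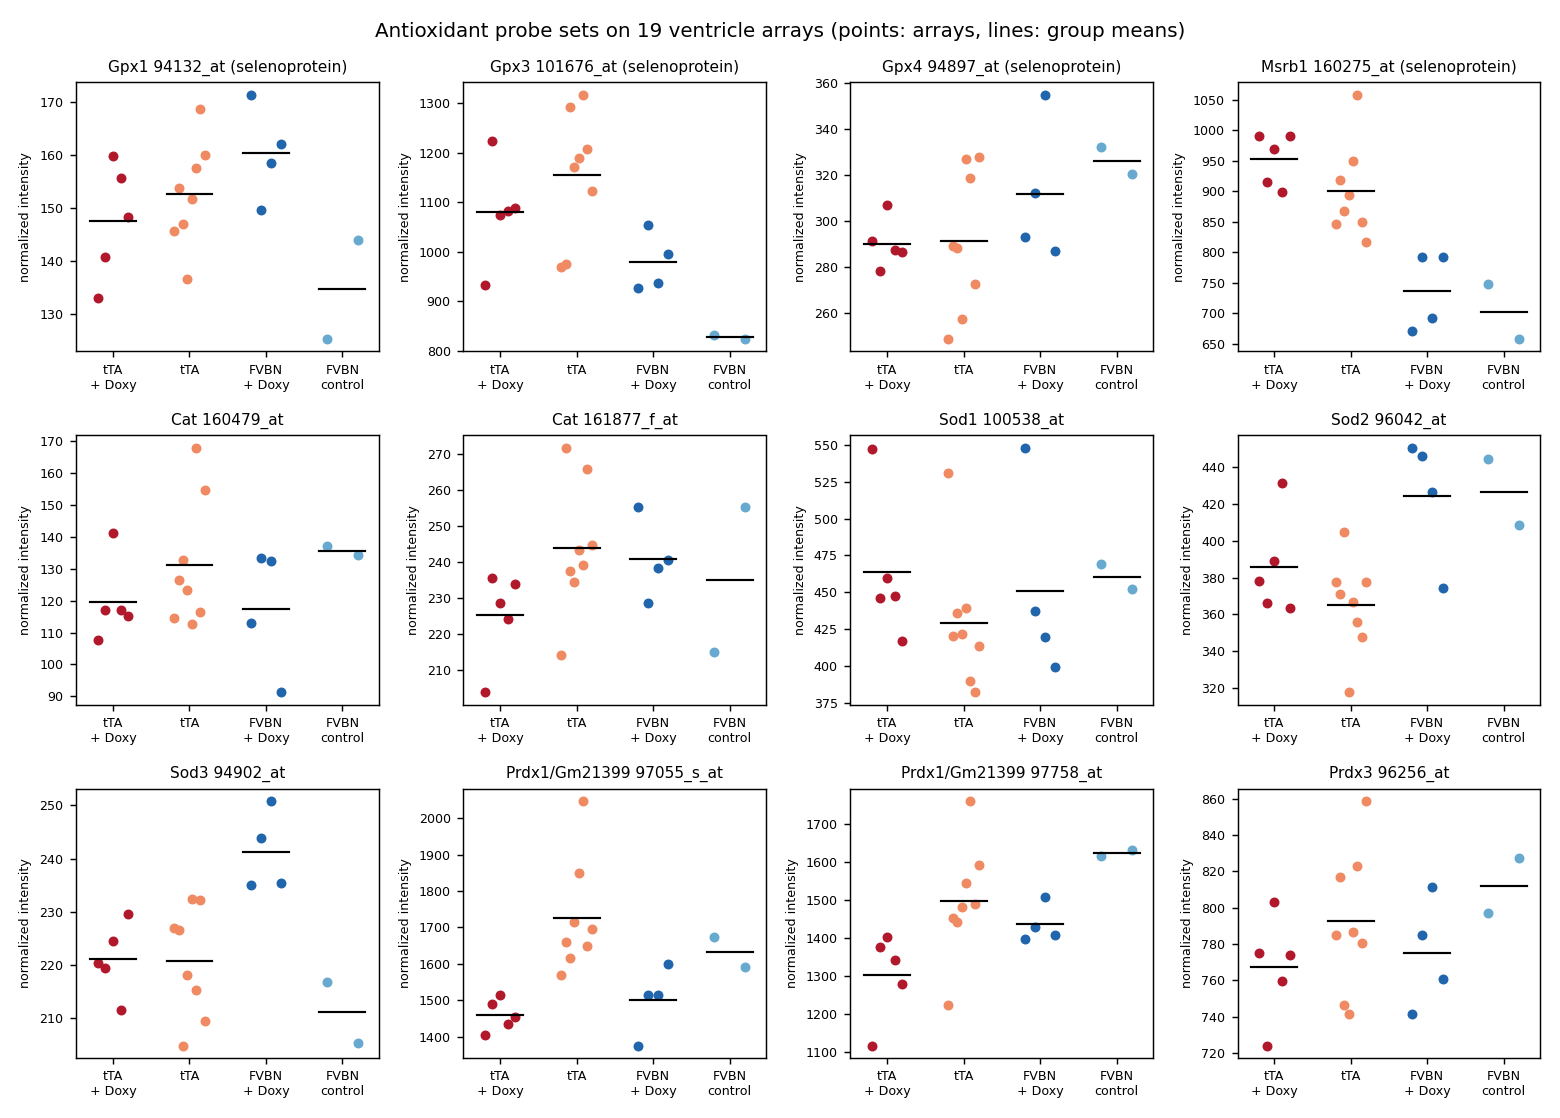
Quantile normalized intensity (linear scale, y axes do not start at 0) of the 12 antioxidant probe sets on 19 arrays, with each point an array and each line a group mean. For Msrb1 the 13 tTA arrays lie between 817 and 1059, all above the 6 FVBN arrays, which lie between 658 and 793.

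Among the selenoprotein genes, Msrb1 was higher in tTA hearts with and without Doxy. Its enzyme returns oxidised methionine in proteins to methionine. Intensity values of Msrb1 were 991, 915, 969, 899.6 and 991 on the tTA + Doxy arrays, against 670.2, 793, 693 and 793 on the FVBN + Doxy arrays. On the 8 tTA arrays they ran from 817 to 1059 with a median of 881, against 748 and 658 in FVBN control. Every tTA array lay above every FVBN array, with or without Doxy.

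In tTA + Doxy the mean Msrb1 intensity was 953 ± 43 (SD, n = 5), against 737 ± 64.9 (n = 4) in FVBN + Doxy. The log2 difference was 0.37 ± 0.07 (SE), 1.30-fold, in 5 of 5 arrays (limma, adjusted p = 0.00245). Without Doxy the means were 900.04 ± 76.9 (n = 8) in tTA and 703 ± 64.1 (n = 2) in FVBN control, a log2 difference of 0.36 ± 0.08, 1.28-fold, in 8 of 8 arrays (limma, adjusted p = 0.018). The mean of both differences, which uses the same arrays, was 0.36 ± 0.05 (limma, adjusted p = 0.000123). The interaction, the effect of Doxy in tTA hearts less its effect in FVBN hearts, was 0.02 with a 95% interval from -0.20 to 0.24 (limma, adjusted p = 0.944).

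The Msrb1 call under Doxy and the call for the mean were kept in all 32 and all 31 alternative settings run, with adjusted p-values up to 0.0287 and 0.0387. The call without Doxy was kept in 26 of 32. It ended with median scaling (0.24, adjusted p = 0.153), with the deposited values not normalized further (0.25, adjusted p = 0.115), with all probe sets tested (0.36, adjusted p = 0.0569), without FVBN control array 8177 (0.45, adjusted p = 0.0551) or 8182 (0.26, adjusted p = 0.28), and on adding the beta-actin ratio to the model (0.27, adjusted p = 0.368). That ratio, the log2 signal of the 3′ over the 5′ beta-actin control probe set, was 0.362 ± 0.06 in tTA + Doxy, 0.323 ± 0.11 in tTA, 0.509 ± 0.079 in FVBN + Doxy and 0.549 ± 0.008 in FVBN control. Single arrays ran from 0.27 to 0.419, 0.145 to 0.445, 0.407 to 0.6 and 0.543 to 0.555 in the same order of groups. The ratio was thus lower on most tTA arrays than on the FVBN arrays, and a model with both cannot fully tell it apart from genotype. This holds for every genotype comparison here, and the part of the ratio in these results beyond this covariate was not tested.

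Gpx3, the secreted glutathione peroxidase found in plasma, was higher in tTA hearts in the comparison without Doxy. Its intensity ran from 969 to 1318 with a median of 1181 on the 8 tTA arrays, against 833 and 824 on the FVBN control arrays, which were the lowest of all 19. The means were 1156 ± 129.5 (SD, n = 8) in tTA and 828 ± 6.32 (n = 2) in FVBN control, and the groups did not overlap. The log2 difference was 0.47 ± 0.10, 1.39-fold, in 8 of 8 arrays (limma, adjusted p = 0.00966).

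Under Doxy the Gpx3 values were 933, 1223, 1074, 1082 and 1089 in tTA + Doxy, against 928, 1054, 936 and 996 in FVBN + Doxy, and these groups overlapped. The log2 difference there was 0.14 ± 0.08, with a 95% interval from -0.04 to 0.31 (limma, adjusted p = 0.356). The mean of both differences was 0.31 ± 0.07 (limma, adjusted p = 0.00409). The interaction stood at -0.33 ± 0.13 (limma, adjusted p = 0.278), so the difference between the 2 genotype effects did not pass. The call without Doxy needed both FVBN control arrays: leaving out 8177 gave 0.48 (adjusted p = 0.143) and leaving out 8182 gave 0.47 (adjusted p = 0.121). It also ended with median scaling (0.35, adjusted p = 0.0568) and with the beta-actin covariate (0.45, adjusted p = 0.176), and the call for the mean ended with that covariate alone (0.29, adjusted p = 0.123).

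Gpx1, the glutathione peroxidase of cytosol and mitochondria, passed in no comparison. Its values were 133, 141, 160, 156 and 148 in tTA + Doxy, from 137 to 169 (median 153) in tTA, 171, 150, 159 and 162 in FVBN + Doxy, and 125 and 144 in FVBN control. The FVBN + Doxy arrays were all above the FVBN control arrays. Gpx1 lay at 0.18 ± 0.07 in tTA against FVBN control (limma, adjusted p = 0.21) and at -0.12 ± 0.06 in tTA + Doxy against FVBN + Doxy (limma, adjusted p = 0.271). The interaction for Gpx1 was -0.30 ± 0.10 with an unadjusted p of 0.00491, and it did not pass over all probe sets (limma, adjusted p = 0.243).

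Gpx4, which reduces lipid hydroperoxides in membranes, had overlapping values in each pair of groups compared. They ran from 278 to 307 in tTA + Doxy, from 249 to 328 in tTA, from 287 to 355 in FVBN + Doxy, and were 332 and 320.3 in FVBN control. Its log2 difference was -0.17 ± 0.09 without Doxy (limma, adjusted p = 0.348) and -0.10 ± 0.08 under Doxy (limma, adjusted p = 0.475). So of the 4 selenoprotein genes 2 lay below FVBN in the comparison under Doxy, Gpx1 and Gpx4.

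Of the dismutases Sod2 alone passed, and only in the mean of both genotype differences. Sod2, the manganese enzyme of the mitochondrial matrix, had intensities of 378, 366, 389, 431 and 363 in tTA + Doxy, against 451, 446, 427 and 374 in FVBN + Doxy. In tTA it ran from 317 to 405 (median 369), against 445 and 409 in FVBN control, and these 2 groups did not overlap. Neither difference passed, -0.14 ± 0.07 under Doxy (limma, adjusted p = 0.243) and -0.23 ± 0.08 without (limma, adjusted p = 0.128). Their mean did, with Sod2 lower by a log2 difference of -0.18 ± 0.05 (limma, adjusted p = 0.0286). That call was kept in 22 of 31 settings. It ended at values from -0.21 to -0.15 without any of the arrays 7488, 8337, 8338, 8177 or 8182, with all probe sets (-0.18, adjusted p = 0.0706), without arrays 7288, 7399 and 8337 together (-0.17, adjusted p = 0.0728), with the hemoglobin covariate (-0.16, adjusted p = 0.177) and with the beta-actin covariate (-0.066, adjusted p = 0.672).

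Sod3, the extracellular dismutase, was the member with the smallest spread within groups, an SD of 0.057 on the log2 scale. Its values were 220.4, 219, 225, 212 and 229.5 in tTA + Doxy and ran from 205 to 232 in tTA. They were 235, 244, 251 and 235 in FVBN + Doxy, against 217 and 205 in FVBN control, so the FVBN + Doxy arrays were above every other array. Sod3 lay at -0.13 ± 0.04 in tTA + Doxy against FVBN + Doxy (limma, adjusted p = 0.103) and at 0.19 ± 0.06 in FVBN + Doxy against FVBN control (limma, adjusted p = 0.268), and neither passed. Its interaction was -0.19 ± 0.07 (limma, adjusted p = 0.265).

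Sod1, the copper-zinc enzyme of the cytosol, passed in no comparison, and its values did not sort by group. They were 547, 446, 459, 447 and 417 in tTA + Doxy, and 548, 437, 419 and 399 in FVBN + Doxy. In tTA they ran from 382 to 531 with a median of 421, against 469 and 452 in FVBN control. In each of the 3 larger groups 1 array stood far above the rest, 7399 in tTA + Doxy, 7288 in tTA and 8337 in FVBN + Doxy. The log2 difference of Sod1 was 0.04 ± 0.09 under Doxy, with a 95% interval from -0.15 to 0.24, and -0.11 ± 0.11 without, with an interval from -0.34 to 0.12 (limma, adjusted p = 0.82 and 0.676).

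Catalase, the peroxisomal enzyme that breaks down hydrogen peroxide, gave 2 readings that did not move together. At 161877_f_at values ran from 204 to 236 in tTA + Doxy, 214 to 272 in tTA, 229 to 255 in FVBN + Doxy, and were 215 and 255 in FVBN control. At 160479_at the same groups ran from 108 to 141, 113 to 168 and 91.2 to 133, with 137 and 134 in FVBN control. Over 19 arrays, as deviations from the group means, the 2 probe sets correlated at Pearson r = 0.004, a description only. Their log2 differences had opposite signs in both genotype comparisons, 0.06 ± 0.08 and -0.06 ± 0.15 without Doxy, -0.10 ± 0.06 and 0.04 ± 0.12 with it. Neither probe set of Cat passed in any of the 6 comparisons.

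Of the peroxiredoxins, thiol peroxidases that are recharged by thioredoxin, Prdx3 is mitochondrial and had nearly level values. They ran from 724 to 803 in tTA + Doxy, 742 to 859 in tTA and 742 to 811 in FVBN + Doxy, and were 797 and 827 in FVBN control. Prdx3 differed by -0.01 ± 0.05 under Doxy, with a 95% interval from -0.11 to 0.08, and by -0.04 ± 0.06 without, with an interval from -0.15 to 0.08 (limma, adjusted p = 0.887 and 0.801).

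The Prdx1/Gm21399 probe sets gave the lowest unadjusted p of any member in a Doxy comparison. At 97055_s_at intensities were 1404, 1491, 1515, 1436 and 1454 in tTA + Doxy, against 1569 to 2047 (median 1678) in tTA, and these groups did not overlap. The log2 difference was -0.24 ± 0.05, in 5 of 5 arrays, with an unadjusted p of 0.00019 that did not pass over all probe sets (limma, adjusted p = 0.101). At 97758_at it was -0.20 ± 0.06 (limma, adjusted p = 0.385), where the tTA + Doxy values of 1117 to 1404 overlapped the tTA values of 1223 to 1762. In FVBN the Doxy difference at the 2 probe sets was -0.12 ± 0.08 and -0.18 ± 0.10 (limma, adjusted p = 0.534 and 0.473). With array weights the tTA + Doxy difference at 97055_s_at passed (-0.23, adjusted p = 0.0452), as it did on leaving out tTA array 7294 (-0.25, adjusted p = 0.0479).

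**Figure D2:**
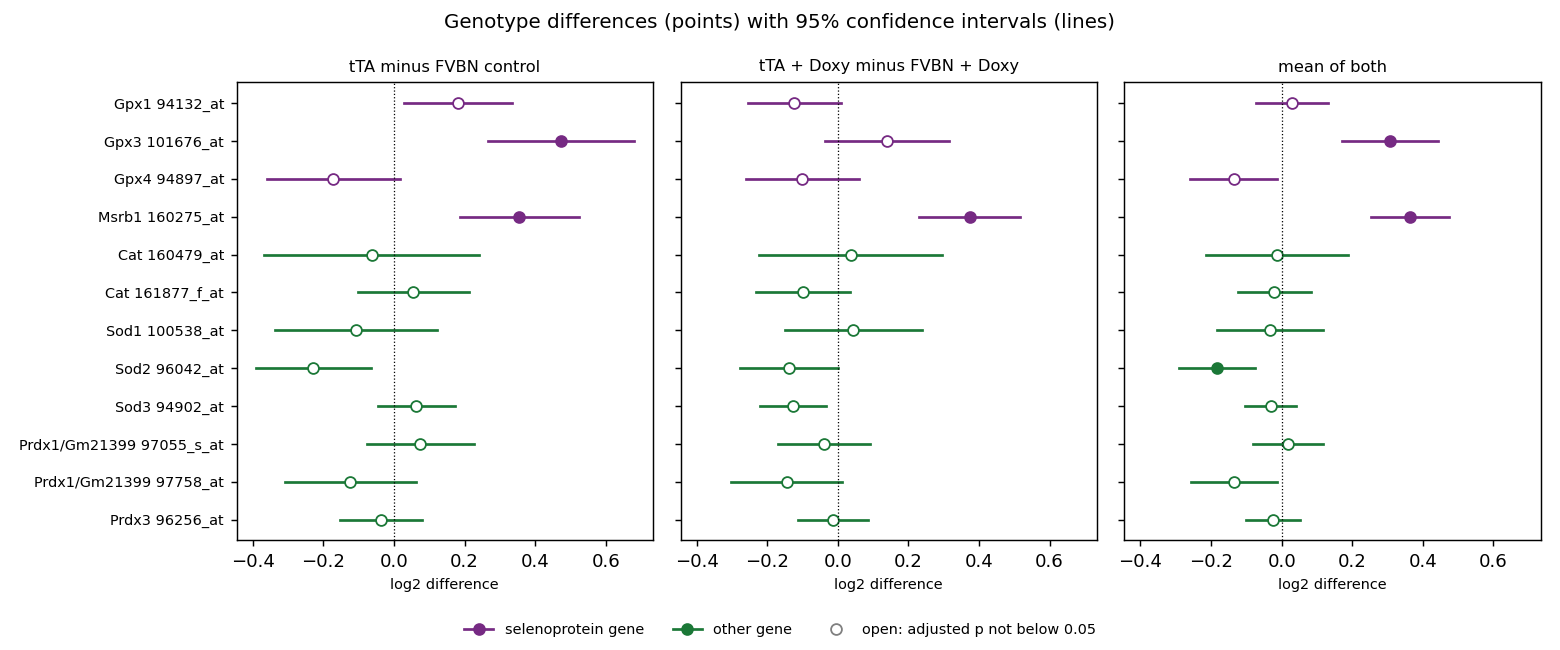
Log2 differences between tTA and FVBN for the 12 probe sets (points) with 95% confidence intervals (lines), without Doxy, with Doxy, and as the mean of both. Filled points passed at an adjusted p below 0.05: Msrb1 in all 3 panels, Gpx3 in the panels without Doxy and for the mean, and Sod2, to the left of 0, for the mean.

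Set side by side, the selenoprotein genes had a median log2 difference of 0.27 in tTA against FVBN control and the other genes, without Prdx1, one of -0.04, beside 0.01 over all tested probe sets. With 1 probe set per gene, the brightest, 2 of 4 selenoprotein genes rose and 0 of the 5 others passed. Among all 7453 probe sets 2.79% passed in this comparison in limma (0.966% as higher, 1.82% as lower), and 16.7% had an unadjusted p below 0.05, as did 4 of the 9 genes. Under Doxy the medians were 0.02 for the selenoprotein genes, -0.10 for the others and -0.01 over all probe sets, with 1 of 4 rising and 0 of 5 passing, against 5.86% of all called and 4.27% called as higher. An unadjusted p below 0.05 was reached by 2 of the 9 genes under Doxy and by 21.1% of all probe sets. For the mean of both, 2 of 4 rose and 1 of 5 fell, against 9.08% called among all, 4.78% as higher and 4.31% as lower. The range within the selenoprotein genes, from -0.17 to 0.47 without Doxy, was wider than the gap between the medians. The 4 genes did not share a direction in either comparison.

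Groups that did not overlap were seen for 3 of 12 probe sets in tTA against FVBN control (Gpx3 and Msrb1 higher, Sod2 lower), where 6.63% of all tested probe sets were apart as higher and 6.09% as lower. Under Doxy they were seen for 2 of 12 (Msrb1 higher, Sod3 lower), against 6.23% as higher and 3.49% as lower among all. With Doxy ignored, Msrb1 alone of the 12 separated the 13 tTA from the 6 FVBN arrays, being higher in tTA, as did 0.778% of all tested probe sets.

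Doxy by itself changed none of these genes past the threshold. In FVBN + Doxy against FVBN control, 0 of the 9 genes with a probe set of their own passed in limma, and 3 had an unadjusted p below 0.05, namely Gpx1 (0.25 ± 0.08), Gpx3 (0.24 ± 0.11) and Sod3 (0.19 ± 0.06). Over all probe sets 0.0403% passed and 11.8% had such a p. In tTA + Doxy against tTA, 0 of 9 passed and 1, Cat at 161877_f_at (-0.11 ± 0.05), had an unadjusted p below 0.05, against 0.0671% and 7.65% of all. In the interaction 0 of 9 passed and 3 had such a p, Gpx1, Gpx3 and Sod3, against 0.0134% and 14.6%. The interaction uses the same FVBN arrays as the comparison in FVBN. FVBN + Doxy did not overlap FVBN control for 5 of 12 probe sets, 3 higher (Gpx1, Gpx3, Sod3) and 2 lower (Cat at 160479_at, Prdx1/Gm21399 at 97758_at), against 12.7% higher and 10.7% lower among all. tTA + Doxy lay apart from tTA for 1 of 12, Prdx1/Gm21399 at 97055_s_at, lower, as did 0.188% of all.

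**Figure D3:**
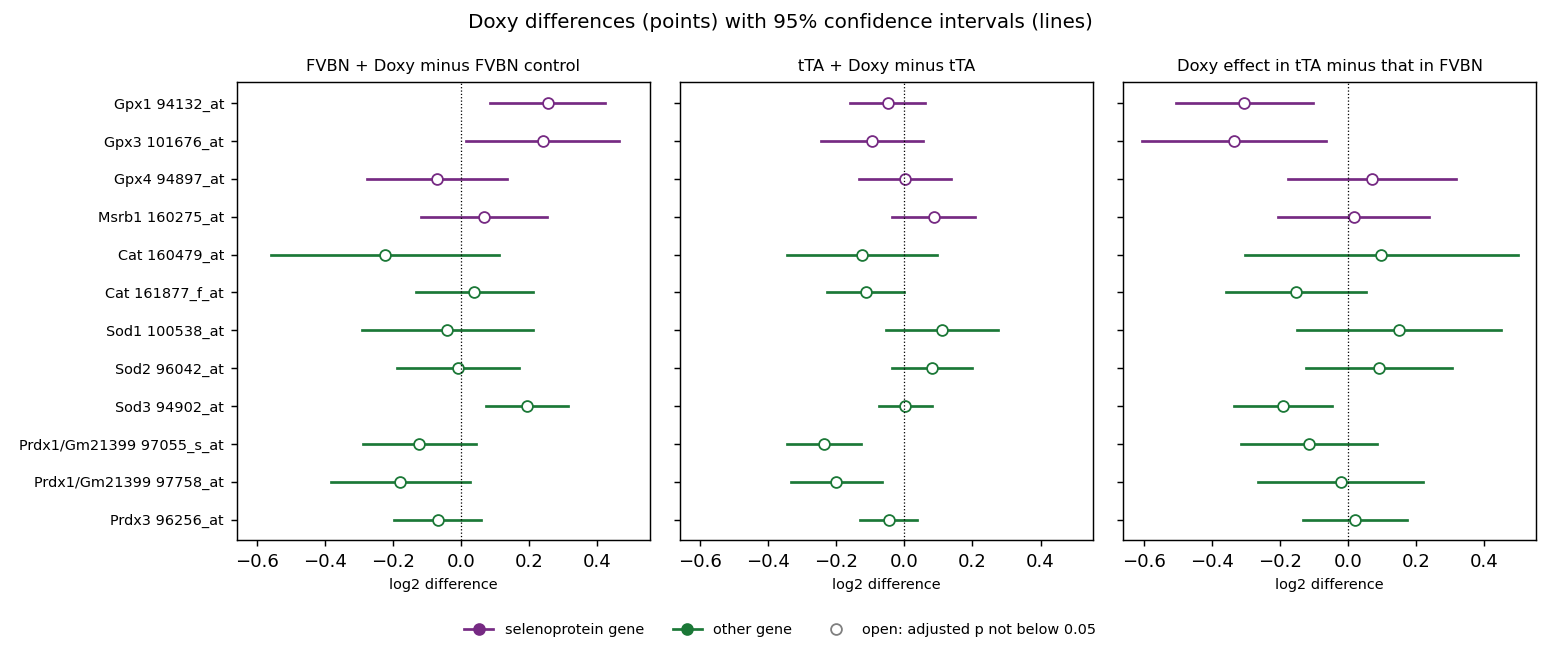
Log2 differences with Doxy for the 12 probe sets (points) with 95% confidence intervals (lines), in FVBN, in tTA, and as the tTA effect minus the FVBN effect. No point is filled, since none passed at an adjusted p below 0.05. The Gpx1, Gpx3 and Sod3 intervals lie above 0 in FVBN and below 0 in the panel of the difference between the genotypes.

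The order of the group means differed between the genes. From high to low it was tTA + Doxy, tTA, FVBN + Doxy and FVBN control for Msrb1, where the ranges of the neighbours tTA + Doxy and tTA overlapped, as did those of FVBN + Doxy and FVBN control. For Gpx3 it was tTA (1156), tTA + Doxy (1080), FVBN + Doxy (979) and FVBN control (828), with overlap between the first 3. Sod2 and Gpx4 shared the order FVBN control, FVBN + Doxy, tTA + Doxy and tTA. Sod3 and Gpx1 were highest in FVBN + Doxy and lowest in FVBN control. Over all 19 arrays the highest value was 1.84 times the lowest for Cat at 160479_at, 1.61 for Msrb1 and 1.60 for Gpx3. It was 1.58 for Prdx1/Gm21399 at 97758_at and 1.49 at 97055_s_at. Sod1 had 1.44, Sod3 1.22 and Prdx3 1.19, with the remaining probe sets between Sod1 and Sod3.

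**Figure D4:**
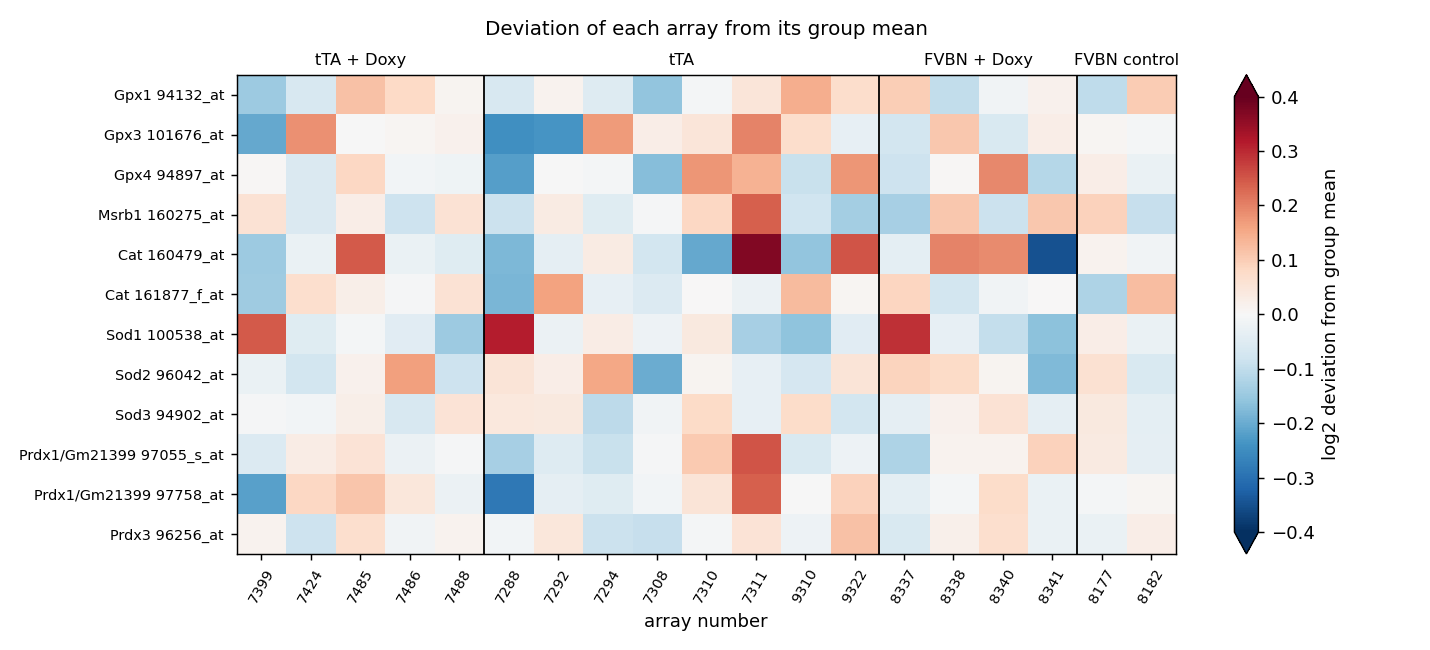
Deviation of each array from the mean of its group, on the log2 scale, for 12 probe sets (rows) and 19 arrays (columns, by array number), red above and blue below the mean. Sod1 is red on 7399, 7288 and 8337, arrays on which Gpx3 and both Prdx1/Gm21399 probe sets are the lowest of their group.

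The patterns over the 19 arrays were also set against all tested genes, by Pearson r on log2 values, as a measure of likeness that also reflects the groups. Nearest to Msrb1 were Nudt14 (r = 0.921), Clu, the gene of clusterin (0.912), and Lgals1, the gene of galectin-1 (0.891). Nearest to Gpx3 was Acta1, the skeletal alpha-actin gene (0.882), then Pdlim1 (0.782) and Hdac6 (0.774). As deviations from the group means r was lower, 0.746, 0.766 and 0.603 for the genes near Msrb1 and 0.738, 0.662 and 0.661 for those near Gpx3. Nearest to Sod2 were Timm8a1 (0.862), Ablim1 (0.83) and Stard7 (0.818). Gpx1 had Slc4a1, the anion exchanger of red blood cells, as its nearest gene (0.864), then Zfp574 (0.857) and Igkv8-30 (0.824). For Cat at 161877_f_at they were Tpsb2 (0.928), Ccna2 (0.912) and Bcl2 (0.905), and for Sod1 Ptpn12 (0.857), Erp29 (0.841) and Siah2 (0.79). As deviations from the group means r stayed at 0.928 for Cat and Tpsb2 and 0.858 for Sod1 and Ptpn12, and was 0.81 for Gpx1 and Slc4a1. For Gpx4 the first was Cast (0.829), for Sod3 Kcnd3 (0.82), for Prdx3 Ogn (0.74) and for Prdx1/Gm21399 at 97055_s_at Adgrg1 (0.76).

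Red blood cells are rich in several of these enzymes, so their markers are given beside Gpx1. Mean log2 hemoglobin was 10.533 in tTA + Doxy, 10.506 in tTA, 11 in FVBN + Doxy and 10.839 in FVBN control. Mean Gpx1 intensity was 148, 153, 160 and 135 in the same order. FVBN + Doxy was highest in both. FVBN control was lowest in Gpx1, with more hemoglobin than either tTA group. In tTA + Doxy, arrays 7424 and 7399 had the most hemoglobin (11.053 and 10.831) and the lowest Gpx1 (141 and 133). In FVBN + Doxy, array 8337 was highest in both (11.148 and 171). Of 13 red blood cell markers 7 had a probe set of their own and 6 were tested, and no marker gene had all of its probe sets at the floor on every array, though 1 of their probe sets did lie there. Their summed intensity ran from 3695 to 7376 in tTA + Doxy, 3725 to 6420 in tTA, 6883 to 7671 in FVBN + Doxy and 6315 to 6811 in FVBN control. Their median log2 difference was -0.22 under Doxy and -0.12 without. Ank1, a membrane skeleton ankyrin, was the 1 of 6 that passed, higher under Doxy (0.29 ± 0.08, limma, adjusted p = 0.0252). Among all tested probe sets 5.86% were called under Doxy, 4.27% as higher and 1.6% as lower. Without Doxy 2.79% were called, 1.82% as lower. With the hemoglobin level as a covariate Msrb1 and Gpx3 kept their calls, while Sod2 lost its call for the mean (-0.16, limma, adjusted p = 0.177). Calls over all probe sets went with it from 437 to 157 under Doxy and from 677 to 303 for the mean. Beyond that covariate the part of blood in these results was not tested. Of the smooth muscle markers, 7 of 7 were on the array and the 6 tested summed to 989.6 to 1161 in tTA + Doxy, 861 to 991 in tTA, 1032 to 1171 in FVBN + Doxy and 1077 to 1164 in FVBN control. These sums join markers that moved apart: Acta2 was lower with and without Doxy (-0.66 ± 0.17 and -1.27 ± 0.20), while Myl9 (0.53 ± 0.06) and Smtn (0.26 ± 0.06) were higher under Doxy (limma, adjusted p up to 0.0278). The 9 endothelial markers, all tested, summed to 2023 to 2212 in tTA + Doxy, 2133 to 2318 in tTA, 2083 to 2456 in FVBN + Doxy and 2365 to 2438 in FVBN control. In the smooth muscle sums as in the endothelial sums, tTA lay below FVBN control without overlap. Among all tested probe sets 6.09% were apart as lower in that comparison. Of the endothelial markers Emcn, the gene of endomucin, was lower without Doxy (-0.28 ± 0.07, limma, adjusted p = 0.0265). Of the macrophage markers, 10 of 10 were on the array and the 9 tested summed to 1280.1 to 1584, 1200.2 to 1457, 1498 to 1655 and 1364 to 1465 in the same order, and Cd14 was lower under Doxy (-0.19 ± 0.05, limma, adjusted p = 0.034). Of the adipocyte markers, 6 of 8 were on the array and the 3 tested summed to 404 to 428, 381 to 461, 426 to 454 and 382 to 424. Their part in the results was not tested.

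The genes of 8 surrounding pathway lists were chosen with results of these data known. Among all probe sets 1.82% were called lower and 0.966% higher in tTA against FVBN control, with 16.7% at an unadjusted p below 0.05. Under Doxy 4.27% were called higher and 21.1% had such a p. In tTA against FVBN control, Txnrd1, the cytosolic thioredoxin reductase and itself a selenoprotein, was lower (-0.30 ± 0.07, limma, adjusted p = 0.0195), as was Selenok, a selenoprotein of the endoplasmic reticulum (-0.25 ± 0.06, adjusted p = 0.0165). These were 2 of 9 tested genes, of 19 listed, among the other selenoproteins, with 0 higher, 3 at an unadjusted p below 0.05 and a median of -0.08, so 2 selenoprotein genes outside the set fell where Msrb1 and Gpx3 rose. Under Doxy 0 of 9 passed in limma and 1 had an unadjusted p below 0.05 (median 0.04). In the thioredoxin and glutaredoxin list Txnrd1 was the 1 of 8 that fell without Doxy (median -0.13), where 4 of 8 had an unadjusted p below 0.05, and 0 of 8 passed under Doxy (1 with such a p). The list of glutathione synthesis and reduction, which also holds NADP-linked enzymes, had 1 of 10 tested genes lower without Doxy. That gene was Idh1, the cytosolic NADP-linked isocitrate dehydrogenase (-0.33 ± 0.09, limma, adjusted p = 0.0368). There 4 of 10 had an unadjusted p below 0.05, and 0 passed under Doxy (0 with such a p).

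Of 15 tested Nrf2 regulators and targets 2 fell without Doxy, Txnrd1 and the glutathione transferase gene Gsta4 (-0.21 ± 0.06, limma, adjusted p = 0.0472), with a median of -0.04 and 7 of 15 at an unadjusted p below 0.05. Under Doxy 2 rose, Nfe2l1, a relative of Nrf2 (0.25 ± 0.07, adjusted p = 0.0402), and Mafk, a small partner protein of Nrf2 (0.17 ± 0.05, adjusted p = 0.0393), again with a median of -0.04 and with 3 of 15 at such a p. Nfe2l2, the gene of Nrf2, stood at 0.06 in the mean of both genotype differences (adjusted p = 0.613). Of 12 peroxisome genes 1 rose under Doxy, Pex7, an import receptor (0.37 ± 0.10, adjusted p = 0.0278), and 0 passed without it (3 with an unadjusted p below 0.05). Of 6 genes that make superoxide or peroxide 0 passed in limma in either comparison, with 1 and 2 below an unadjusted p of 0.05 without and with Doxy. Aox1, an aldehyde oxidase, was lower in the mean of both genotype differences (-0.20 ± 0.05, limma, adjusted p = 0.025), as were 4.31% of all probe sets. The list of other peroxidase and reductase genes, which also holds Ccs, had 5 tested genes, among them Prdx2 and Gpx2 but no methionine sulfoxide reductase. It had 0 calls in every comparison, with 2 and 1 genes, Ccs each time among them, below an unadjusted p of 0.05. The selenocysteine incorporation list had 2 tested genes and 0 calls, with 0 and 1. In the Doxy comparisons and the interaction 0 genes of these 8 lists passed in limma. At most 4 of a list had an unadjusted p below 0.05, 4 of 9 other selenoproteins in the interaction. Among all probe sets 0.0403% passed for Doxy in FVBN, 0.0671% for Doxy in tTA and 0.0134% in the interaction. An unadjusted p below 0.05 was held there by 11.8%, 7.65% and 14.6%.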

How the data were processed

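Affymetrix intensity values of 20 mouse ventricle arrays, on a linear scale and all above 0, were used as deposited; their summary method, background correction and normalization by the authors are not stated by any source used. Deposited array medians ran from 60.74 to 62.45, and the number of arrays limits the precision. Probe sets were named through GEO's platform annotation (10833 linked to 1 gene, 396 to several, 1193 to none), with 10817 matched by gene number to RefSeq symbols. The 66 control probe sets were left out, values of the 19 grouped arrays were quantile normalized, floored at 14.37, their 10th percentile, and put on the log2 scale in R 4.3.3. The brightest 60%, 7453 probe sets for 5658 genes, were fitted with limma 3.58.1 (4 group means, intensity trend, robust), giving log2 differences with standard errors (SE), and p-values with Benjamini-Hochberg adjustment over all tested probe sets in each of 6 comparisons, with calls at an adjusted p below 0.05. Folds are the exponent of the log2 difference. The fit was tested on simulated data.

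The genes, lists, comparisons and alternatives were chosen with earlier results of these data known. Named by rule were every member probe set and up to 4 called genes per list, each gene read at its brightest probe set. For each member, up to 3 genes with the highest Pearson r were named. Nfe2l2, Prdx2, Gpx2 and Ccs were named outside these rules. The alternatives were other scalings, floors and filters, variance moderation, array weights, fewer arrays, and 2 covariates, the beta-actin ratio and the mean log2 level of the hemoglobin probe sets. Figures used matplotlib 3.10.9 under Python 3.11.15.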

Additional observations from a re-analysis of the deposited data

Results flagged for a closer look

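Sod1 on tTA array 7288 read 531, while the other 7 tTA arrays lay between 382 and 439. Its gap to the nearest array, 0.576 of the range of the group, exceeded the 95% critical value of Dixon's test for 8 arrays. This was 1 of 36 such checks on the members (12 probe sets in 3 groups; the 2 FVBN control arrays were too few), and chance alone gives about 1 in 20. The array without a group read 548.5 for Sod1, just above the highest of the 6 FVBN arrays (548).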

How the results depend on the processing

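No paired analysis was possible because the groups share no array numbers. Of 2292 single-gene values under alternatives, 2192 kept their direction and side of the threshold, 20 lost a call, 2 gained one and 78 changed sign, none of the 78 passing before or after. Msrb1 under Doxy passed in all 32 alternatives (0.31 to 0.42). Antioxidant genes called in tTA against FVBN control (2) numbered 0 with median scaling, 1 without further normalization, 1 with all probe sets and 0 with the beta-actin covariate, and those called for the mean of both (3) numbered 1 with that covariate. Over all probe sets, calls in tTA against FVBN control (208) were 27 with the beta-actin covariate. The share called as higher there was 34.6%, but 17.2% with median scaling, and the median of all probe sets moved by less than 0.1. Calls under Doxy (437) were 282 with all probe sets, 703 with array weights, 157 with the hemoglobin covariate and 290 without arrays 7288, 7399 and 8337, a set chosen after seeing the data. Calls for the mean (677) were 210 with the beta-actin and 303 with the hemoglobin covariate. Calls for Doxy in FVBN (3) were 1 with all probe sets, 5 with only the arrays compared and 8 without tTA arrays 9310 and 9322. Calls for Doxy in tTA (5) were 10 with median scaling, 11 without further normalization, 2 with all probe sets, 11 with array weights, 3 without 9310 and 9322 and 2 without the 3 arrays above. Interaction calls (1) were 6 with median scaling, 6 without further normalization, 0 with all probe sets, 5 with the brightest 40%, 3 without 9310 and 9322 and 0 without the 3 arrays. Leaving out 1 array at a time gave 54 to 239 calls without Doxy (antioxidant genes 0 to 2), 239 to 492 under Doxy (1 to 1), 338 to 705 for the mean (2 to 3), 1 to 7 for Doxy in FVBN, 3 to 25 for Doxy in tTA and 0 to 4 for the interaction, with 0 to 0 antioxidant genes in these 3. FVBN control had 2 arrays, so leaving out 1 assumes that the other varies like the other groups.

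With median scaling and without further normalization, Prdx1/Gm21399 at 97055_s_at stood at -0.072 and -0.057 in tTA against FVBN control (0.075 as reported), -0.038 and -0.034 for the mean, and 0.068 and 0.046 in the interaction, where 97758_at stood at 0.15 and 0.13. In the same 2 settings Msrb1 for Doxy in FVBN stood at -0.026 and -0.014. With median scaling Prdx3 under Doxy stood at 0.0055 and Cat at 161877_f_at for Doxy in FVBN at -0.011. With array weights Cat at 160479_at stood at 0.0030 for the mean, Sod2 at 0.0028 for Doxy in FVBN and Gpx4 at -0.0058 for Doxy in tTA. With the beta-actin covariate Cat stood at -0.054 and Sod1 at 0.030 in tTA against FVBN control, Prdx3 at 0.0080 under Doxy, Sod2 at 0.014 for Doxy in FVBN and Gpx4 at -0.014 for Doxy in tTA. For the mean, that covariate gave Cat at 160479_at 0.036, Sod1 0.082, 97055_s_at -0.029 and Prdx3 0.0029, and the hemoglobin covariate gave Sod1 0.021. The Msrb1 interaction stood at -0.018 without 9310 and 9322 and at -0.053 without 7288, 7399 and 8337. Without those 3 arrays Cat stood at 0.011 (160479_at) and 0.024 (161877_f_at) for the mean, Gpx4 at -0.032 for Doxy in tTA and Prdx3 at -0.0041 in the interaction. Cat at 160479_at gave -0.063 without Doxy, 0.036 under Doxy, -0.22 for Doxy in FVBN and 0.099 in the interaction, signs opposite to those of 161877_f_at. Prdx1/Gm21399 at 97758_at gave -0.12 without Doxy and -0.13 for the mean.

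Leaving out 1 array at a time also took some values across 0. Cat at 161877_f_at ran from -0.069 to 0.18 in tTA against FVBN control, -0.083 to 0.041 for the mean and -0.086 to 0.16 for Doxy in FVBN. Cat at 160479_at ran from -0.080 to 0.10 under Doxy, -0.072 to 0.020 for the mean and -0.017 to 0.17 in the interaction. Sod1 ran from -0.018 to 0.14 under Doxy, -0.063 to 0.017 for the mean and -0.14 to 0.014 for Doxy in FVBN. Msrb1 ran from -0.026 to 0.16 for Doxy in FVBN and -0.075 to 0.11 in the interaction. Prdx3 ran from -0.035 to 0.0081 under Doxy and -0.0047 to 0.049 in the interaction. Prdx1/Gm21399 ran from -0.0025 to 0.037 for the mean at 97055_s_at and -0.062 to 0.034 in the interaction at 97758_at. Gpx1 ran from -0.021 to 0.080 for the mean, and Sod2 from -0.072 to 0.051 for Doxy in FVBN. For Doxy in tTA, Gpx4 ran from -0.031 to 0.026 and Sod3 from -0.012 to 0.019. The cause was not tested for any of these changes. The 2 FVBN control arrays and dim probe sets limit the precision.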

Other observations

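The 3 arrays with the highest Sod1 of their group, 7399 in tTA + Doxy (547), 7288 in tTA (531) and 8337 in FVBN + Doxy (548), and the array without a group (548.5) stood apart from the other 16, of which the highest read 469. On 7399, 7288 and 8337 Gpx3 (933, 969 and 928) and the Prdx1/Gm21399 probe sets 97055_s_at (1404, 1569 and 1375) and 97758_at (1117, 1223 and 1398) were the lowest of their groups. The array without a group read 915 for Gpx3 and 721 for Msrb1. Its Msrb1 value lay inside the range of the FVBN arrays (658 to 793) and below the 13 tTA arrays (817 to 1059). Its group is not inferred from this. Of 7453 tested probe sets 196 were highest on all of 7399, 7288 and 8337 within their groups and 184 were lowest on all of them, 2.63% and 2.47%. The arrays were picked by their Sod1 value, so these are descriptions with no test. Single arrays outlying by Dixon's test numbered 165 probe sets for 7288, against 20 to 52 for the other tTA arrays, and 181 for 7399, against 36 to 135 for the other tTA + Doxy arrays. For 8337 they numbered 108, within the 60 to 134 of the other FVBN + Doxy arrays. Without the 3 arrays Msrb1 kept its calls, Gpx3 kept both of its calls, and the mean Sod2 difference of -0.17 no longer passed (adjusted p = 0.0728).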
